A study of Mus musculus with 2 samples.

Results

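The miR-192, miR-194 and miR-215 family comprises 4 miRNA genes at 2 loci of the mouse genome, Mir194-2 with Mir192 on chromosome 19 and Mir194-1 with Mir215 on chromosome 1. The members were chosen by gene name, as the genes of these clusters, and all 4 were found among the 1973 miRNA genes counted. They were measured by microRNA sequencing of embryonic liver at 15.5 days, in mice of the strain B6NCrl. There was 1 group of 2 libraries. The first came from a pool of 78 embryos and the second from a pool of 62, each pool with males and females together, and no treatment, mutation or other stage was included. Own-strand miRNA counts, those on the strand of the annotated gene, came to 5529166 in replicate 1 and 3169882 in replicate 2. Levels are given as CPM, a gene's own-strand counts per 1000000 own-strand miRNA counts of its library.

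MicroRNAs are short RNAs that are cut from a hairpin and pair with messenger RNAs mainly through their seed, bases 2 to 8 from the 5′ end. Mature arms are named 5p or 3p for the side of the hairpin they come from. miR-192 and miR-215 are close relatives, and miR-194 is made from the same primary transcripts. The clusters are known for expression in hepatocytes, intestinal epithelium and kidney, where hepatocyte nuclear factors drive them, and several members are also known to respond to p53. Fetal liver is a mixed organ in which hepatoblasts lie among many blood-forming cells. In a bulk sample of it, fewer cells of a type and less RNA per cell cannot be told apart.

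The 5p arms are shown because they carry the family relationship. Sequences are from RefSeq (GRCm38.p6), 5′ to 3′, with the seed in capitals.
miR-192-5p (Mir192): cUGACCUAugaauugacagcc
miR-215-5p (Mir215): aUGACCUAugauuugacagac
miR-194-5p (Mir194-1 and Mir194-2): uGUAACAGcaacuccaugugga

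Among all mature mouse miRNAs of that table, the seed of miR-192-5p was shared by miR-215-5p alone. The seed of miR-194-5p was found at Mir194-1 and Mir194-2 alone. miR-192-5p and miR-215-5p matched at 18 of 21 positions. Counted from 1 at the 5′ end, with the base of miR-192-5p first, they differed by C1A, A12U and C20A, all outside the seed. miR-194-5p was the same 22 bases at both loci.

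The 3p arms are shown because they are what separates the 2 copies of miR-194.
miR-194-1-3p (Mir194-1): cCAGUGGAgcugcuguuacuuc
miR-194-2-3p (Mir194-2): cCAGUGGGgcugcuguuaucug
miR-192-3p (Mir192): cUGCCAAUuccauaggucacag
miR-215-3p (Mir215): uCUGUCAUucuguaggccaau

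The 3p arms of miR-194 differed at 4 of 22 positions, by A8G, C19U, U20C and C22G, with the base of miR-194-1-3p first. The first of these lies in the seed. The seed of miR-194-2-3p also occurs in miR-7055-5p and miR-6926-5p, of which Mir6926 had 0 counts in replicate 1 and 1 in replicate 2 and Mir7055 was not analysed here. No other mature miRNA of the table shared the seed of miR-194-1-3p, miR-192-3p or miR-215-3p.

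The hairpins of the miR-194 copies are shown with both mature arms in capitals, since they set which reads can be placed at 1 locus.
Mir194-2 hairpin: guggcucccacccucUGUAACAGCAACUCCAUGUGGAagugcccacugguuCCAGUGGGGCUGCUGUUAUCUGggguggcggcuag
Mir194-1 hairpin: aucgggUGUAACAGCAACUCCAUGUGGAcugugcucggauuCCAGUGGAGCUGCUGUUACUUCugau

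The longest run shared by these hairpins was 22 bases, the whole 5p arm and no base beyond it. Of the 50 windows of 18 bases in the Mir194-1 hairpin, 5 also occur in the Mir194-2 hairpin, and all 5 lie in the 5p arm, at hairpin bases 7 to 28. For Mir192, 0 of 72 such windows occur in any other hairpin of the table, and for Mir215 0 of 95. A read that is exactly miR-194-5p therefore fits both loci. In the deposited tables, reads that mapped to several places stand in a row of their own, 29.3% of all reads in replicate 1 and 31.1% in replicate 2, and belong to no gene. How many of them are miR-194-5p was not measured, so the levels of Mir194-1 and Mir194-2 leave out such reads and can be too low. After the 5p arm, the next base is a in Mir194-2 and c in Mir194-1. A read that runs 1 base further fits only 1 locus exactly, by that base alone. Whether such reads were placed at their locus of origin was not measured, so the split between the miR-194 genes can be off too.

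Both loci have the same layout, with the miR-194 gene first. On chromosome 19, Mir194-2 (ENSMUSG00000065582.1) lies at chr19:6264643-6264728 and Mir192 (ENSMUSG00000065523.1) at chr19:6264844-6264932, GRCm38, both on the plus strand with 115 bases between them. No other gene of the annotation overlaps them. The nearest are the autophagy gene Atg2a, which ends 2308 bases upstream on the same strand, and the long noncoding RNA Gm14963. The 3′ end of Gm14963, which is on the other strand, lies 4067 bases downstream of Mir194-2. On chromosome 1, Mir194-1 (ENSMUSG00000065581.1) lies at chr1:185313319-185313385 and Mir215 (ENSMUSG00000065562.1) at chr1:185313581-185313692, also on the plus strand, with 195 bases between them. Mir215 lies in exon 2 of the noncoding gene 2010103J01Rik, and Mir194-1 in the intron before it. Both lie, on the other strand, in an intron of Iars2, which encodes the mitochondrial isoleucyl-tRNA synthetase.

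**Figure D1:**
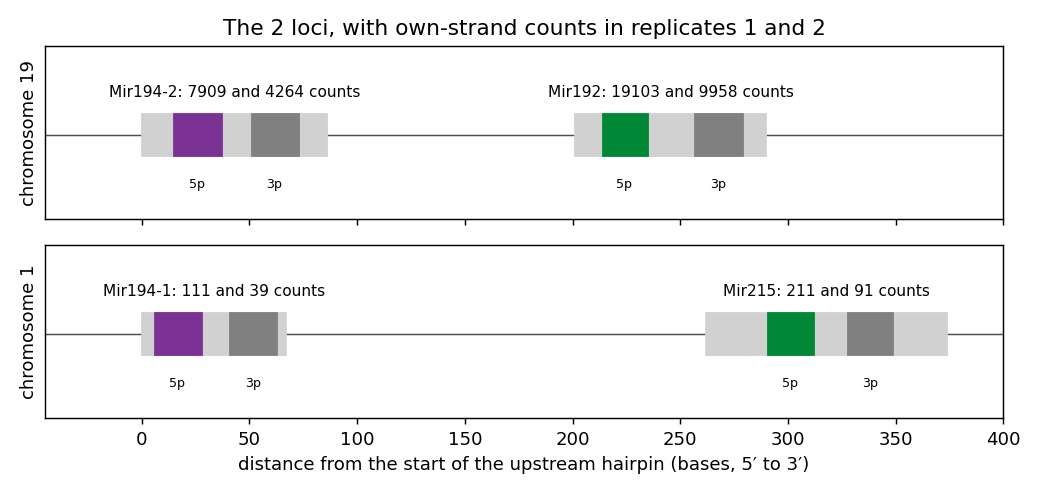
Map of the loci on a common scale in bases from the start of the upstream hairpin, with hairpins in light grey, the 5p arms of miR-194 in purple, the 5p arms of miR-192 and miR-215 in green and the 3p arms in dark grey. The own-strand counts above each hairpin, for replicates 1 and 2, run from 19103 and 9958 for Mir192 to 111 and 39 for Mir194-1.

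The chromosome 19 locus supplied nearly all counts of the family that were placed at 1 locus. The 4 genes together held 0.494% of own-strand counts in replicate 1 (exact Clopper-Pearson 95% interval 0.4885 to 0.5002) and 0.453% in replicate 2 (0.445 to 0.460). Mir194-2 and Mir192 summed to 27012 of the family's 27334 counts in replicate 1 and to 14222 of 14352 in replicate 2. Mir194-1 and Mir215 summed to 322 and 130 counts. The intervals describe counting error alone and treat each read as independent. PCR copies of a molecule cannot be recognised without molecular identifiers, so the intervals can be too narrow.

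Mir192, the seed partner of Mir215, was the highest member in counts placed at 1 locus. It had 19103 counts in replicate 1 and 9958 in replicate 2, or 3455 and 3141 CPM, a mean of 3298 ± 222 CPM (SD, n = 2). This placed it at rank 55 of the 1973 genes and above 84.4% of the 352 genes detected, those with at least 10 counts in both libraries. Mir194-2, its upstream neighbour, had 7909 and 4264 counts, or 1430 and 1345 CPM. Its mean was 1388 ± 60.3 CPM (SD, n = 2), at rank 82 and above 76.7% of detected genes.

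Mir215 had 211 counts in replicate 1 and 91 in replicate 2, or 38.2 and 28.7 CPM, with a mean of 33.4 ± 6.68 CPM (SD, n = 2). It ranked 227 and stood above 35.5% of detected genes. Mir194-1 was the lowest member in counts placed at 1 locus, with 111 and 39 counts, or 20.1 and 12.3 CPM. Its mean was 16.2 ± 5.50 CPM (SD, n = 2), at rank 263 and above 25.3% of detected genes. All 4 members were detected, the lower 2 below the median level of detected genes, which was 135 CPM.

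In counts placed at 1 locus, the order Mir192, Mir194-2, Mir215, Mir194-1 was the same in both libraries. The values of neighbours in this order did not overlap. The miR-194 genes lack the reads that fit both loci, so these counts do not settle the order within a locus for all reads. The narrowest gap was that between Mir215 and Mir194-1. Within each library their counting intervals were apart, at 33.2 to 43.7 against 16.5 to 24.2 CPM in replicate 1 and 23.1 to 35.2 against 8.75 to 16.8 CPM in replicate 2. The upper bound of Mir194-1 in replicate 1 did exceed the lower bound of Mir215 in replicate 2. CPM is not scaled by length, since the mature arms are all 21 or 22 bases long.

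**Figure D2:**
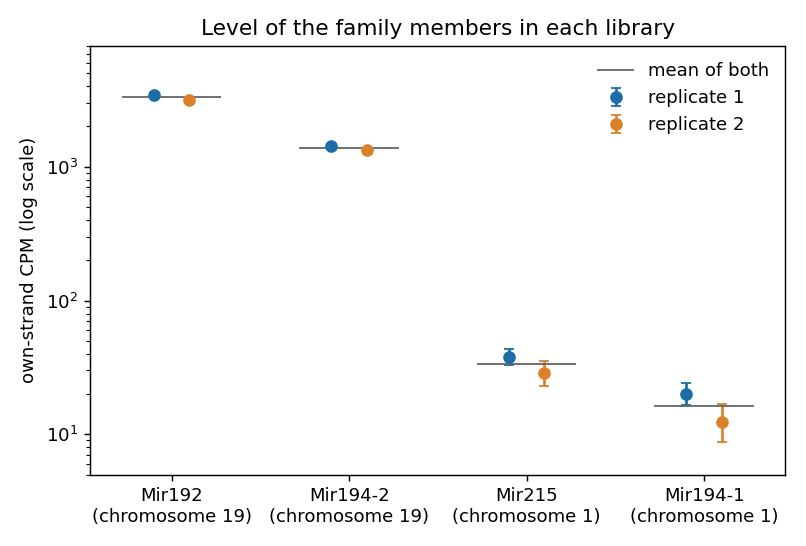
Own-strand CPM of each member on a log axis, with 1 point per library, exact 95% counting intervals as bars and the mean of both libraries as a line. The chromosome 19 genes lie between 1345 and 3455 CPM and the chromosome 1 genes between 12.3 and 38.2 CPM, and each member is higher in replicate 1.

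In counts placed at 1 locus, the chromosome 19 gene far exceeded its chromosome 1 relative for both kinds of miRNA. Mir192 counts were 90.5 times those of Mir215 in replicate 1 (95% interval 79.0 to 104) and 109 times in replicate 2 (89.0 to 136). Mir194-2 counts were 71.3 times those of Mir194-1 in replicate 1 (59.1 to 86.7) and 109 times in replicate 2 (79.8 to 154). In each library the intervals of these ratios overlapped, and whether the ratios differ was not tested. Mir215 held 0.999% ± 0.132 (SD, n = 2) of the counts placed at Mir192 and Mir215, and Mir194-1 held 1.15% ± 0.338 (SD, n = 2) of those placed at the miR-194 genes. These are counts of whole hairpins, with 5p and 3p arms not separated.

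The same counts can be read within each locus, which adds no separate evidence on how the loci compare. Mir194-2 made up 29.3% of the counts of the chromosome 19 locus in replicate 1 (28.7 to 29.8) and 30.0% in replicate 2 (29.2 to 30.7). Mir194-1 made up 34.5% of the chromosome 1 locus in replicate 1 (29.3 to 39.9) and 30.0% in replicate 2 (22.3 to 38.7). The intervals of the 2 loci overlapped in each library, and those of the libraries overlapped at each locus. At this depth an interval of the chromosome 1 share is wide, since it rests on 322 and 130 counts. Overlap does not show that the shares were equal, and whether they differ between the loci was not tested. Both miR-194 shares, and the ratio of Mir194-2 to Mir194-1, leave out reads that fit both loci.

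**Figure D3:**
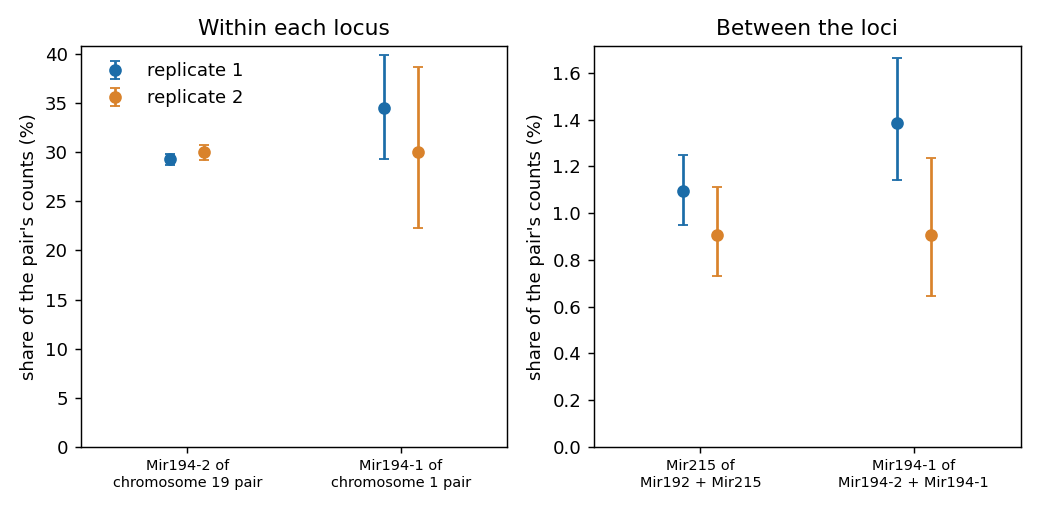
Shares of a pair's own-strand counts in percent, 1 point per library with exact 95% intervals; the left panel gives the miR-194 gene's share within each locus and the right panel the chromosome 1 gene's share of each related pair. The left shares lie between 29.3 and 34.5%, and the right shares between 0.906 and 1.38%.

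The members came almost wholly from their own strand. Mir192, Mir194-2 and Mir215 had 0 counts on the opposite strand in both libraries. Mir194-1 had 2 opposite-strand counts in replicate 1 and 1 in replicate 2, where Iars2 lies.

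Every member was lower in replicate 2, the pool of 62 embryos. The comparison used a two-sided exact binomial test on each gene's counts, with the expected share from TMM-scaled library sizes (a trimmed-mean scaling of the totals) and Benjamini-Hochberg adjustment over all 456 genes with at least 10 counts summed. It compares 2 libraries and covers counting error only, not conditions. It too treats each read as independent, so with PCR copies its p-values can be too small. Of the 456 genes, 39.0% passed the threshold of 0.05 in either direction and 20.8% were lower in replicate 2. All 4 members were tested and all 4 passed as lower. The members of a locus are known to share a primary transcript, so these are not 4 independent results.

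Mir192 had a log2 ratio of replicate 2 over replicate 1 of -0.17 (95% interval -0.21 to -0.14, exact binomial test, adjusted p = 1.75e-21), that is, it was 1.13-fold lower. Mir194-2 had a log2 ratio of -0.12 (-0.18 to -0.07, exact binomial adjusted p = 2.75e-05). In absolute size, both are smaller than the SD of 0.203 of log2 ratios over the 187 tested genes whose level averaged 100 CPM or more. Of these, 62.0% passed in either direction, and 63 genes passed as lower. Among those 187 genes, 26 had a lower log2 ratio than Mir192 and 54 a lower one than Mir194-2.

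The chromosome 1 genes had lower log2 ratios, larger in absolute size, with wider intervals. Mir215 stood at -0.45 (-0.82 to -0.09, exact binomial adjusted p = 0.0383). Mir215 no longer passed with total counts as library sizes (exact binomial adjusted p = 0.0574), with TMM factors taken from all genes tested (exact binomial adjusted p = 0.0508) or with no minimum above 1 count (exact binomial adjusted p = 0.0566). Mir194-1 stood at -0.74 (-1.31 to -0.20, exact binomial adjusted p = 0.0166), a 1.67-fold lower level. Of the 269 tested genes under 100 CPM, 23.0% passed, and 78 had a lower log2 ratio than Mir215 and 56 a lower one than Mir194-1. The interval of Mir215 included the value of Mir192, and that of Mir194-1 did not. Whether the chromosome 1 genes differed from the chromosome 19 genes in this respect was not tested.

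**Figure D4:**
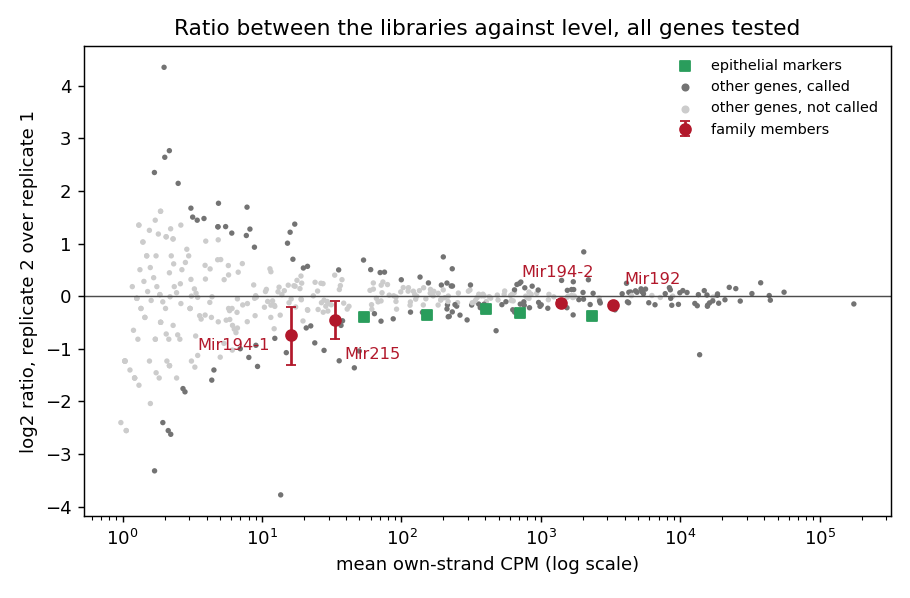
Log2 ratio of replicate 2 over replicate 1 against mean CPM on a log axis, 1 point per tested gene (2 genes at 0 in 1 library are not drawn), with members in red with 95% counting intervals, the 5 epithelial markers as green squares and other genes in dark grey where they passed and light grey where they did not. Members lie at -0.12 to -0.74, below 0 but inside the spread of genes of like level.

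The members were also set against single marker genes of cell types in the same library. For the chromosome 19 genes, the counting intervals of the libraries overlapped for some reference genes and not for others. Overlap of intervals does not show that a ratio was unchanged, and no test of these ratios was made. These reference genes were chosen after their values were seen. Per 1000 counts of Mir122, the leading hepatocyte miRNA, Mir192 had 18.9 counts in replicate 1 (95% interval 18.7 to 19.2) and 18.6 in replicate 2 (18.25 to 18.99), and Mir194-2 had 7.84 (7.67 to 8.02) and 7.97 (7.73 to 8.22). The intervals overlapped for both genes. They also overlapped per 1000 counts of Mir223, a miRNA of granulocytes, where Mir192 had 177 (175 to 180) and 173 (169 to 176) and Mir194-2 had 73.4 (71.8 to 75.1) and 73.9 (71.6 to 76.2). Per 1000 counts of the endothelial Mir126a, Mir192 had 77.1 (76.0 to 78.2) and 72.1 (70.6 to 73.6), which did not overlap, while those of Mir194-2 did, at 31.9 (31.2 to 32.6) and 30.9 (29.9 to 31.8).

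Against epithelial Mir429, of the miR-200 family, the direction turned for the chromosome 19 genes only. Mir192 had 1321 counts per 1000 of Mir429 in replicate 1 (1293 to 1350) and 1516 in replicate 2 (1470 to 1565), so Mir192 was less reduced than Mir429. Mir194-2 had 547 (532 to 562) and 649 (625 to 675). For Mir215 the values were 14.6 (12.7 to 16.7) and 13.9 (11.1 to 17.0), and for Mir194-1 they were 7.68 (6.31 to 9.25) and 5.94 (4.22 to 8.13), with overlapping intervals in both cases. Per 1000 counts of Mir122, Mir215 had 0.209 (0.182 to 0.240) and 0.170 (0.137 to 0.209), and Mir194-1 had 0.110 (0.0906 to 0.133) and 0.0729 (0.0518 to 0.0997), which overlapped too.

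The leading hepatocyte marker, Mir122, held 18.2% and 16.9% of own-strand counts. This is 1 gene, and markers of other tissues were counted too. Several markers of other epithelia and of smooth muscle were also lower in replicate 2. The 5 epithelial miRNAs of gut, duct or kidney (Mir200a, Mir200b, Mir200c, Mir141, Mir429) summed to 0.405% and 0.327% of counts. All 5 were lower in replicate 2, against 20.8% of all genes tested and 63 of the 187 tested genes with a mean of 100 CPM or more. Of the 5, only Mir141 had a lower mean level, at 54.1 CPM. Their median log2 ratio was -0.35, against -0.03 over all genes tested. In the list of gut endocrine or pancreas miRNAs, Mir375 was lower at -0.36, the other 3 of 4 did not pass, and the list summed to 0.191% and 0.153%. The squamous and foregut miRNAs Mir203 (-0.66) and Mir205 (-1.36) were both lower and summed to 0.0644% and 0.0402%. The kidney tubule miRNA Mir204 was lower at -1.07, with 20.1 and 9.78 CPM. Both smooth muscle miRNAs were lower, Mir143 at -0.19 and Mir145a at -0.39, and summed to 16717 and 14980 CPM. None of these markers was at 0 counts in either library, and their part in the family's difference was not tested.

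Markers of blood, vessel and skeletal muscle cells did not all share this direction. Endothelial Mir126a was lower at -0.08. Of 3 leukocyte miRNAs counted, Mir223 was lower at -0.13 and the other 2, Mir150 and Mir155, did not pass, at -0.07 and 0.16. Among erythroid miRNAs Mir451a was lower at -1.11, while Mir144 and Mir486 were each higher at 0.16. The skeletal muscle miRNAs Mir206 and Mir133b were higher, at 0.84 and 1.37. Mir206 had 1430 CPM in replicate 1 and 2628 in replicate 2, and Mir133b 9.40 and 24.9. Mir206 thus stood at a level like that of the chromosome 19 members.

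**Figure D5:**
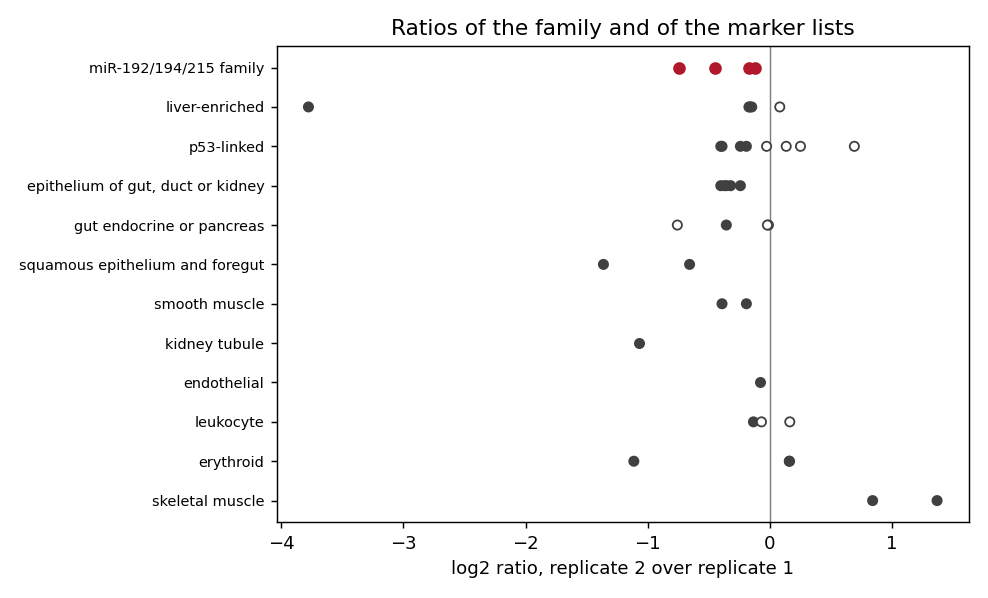
Log2 ratio of replicate 2 over replicate 1 on the horizontal axis for the family in red and for each list of miRNAs in its own row, 1 point per gene tested, filled in dark where it passed the exact binomial test and open where it did not. All 4 family members and all 5 epithelial markers lie below 0, and both skeletal muscle miRNAs lie above 0.

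Of 5 other liver-enriched miRNAs counted, 4 were lower in replicate 2 and 0 higher, with a median log2 ratio of -0.16. Over all genes tested, 20.8% were lower, and of the 187 with a mean of 100 CPM or more, 63 were lower. Mir122 stood at -0.15, Mir101b at -0.16 and Mir148a at -0.17, while Mir101a, at 0.08, did not pass. Mir802, a miRNA of liver and pancreas, had 140 counts in replicate 1 and 6 in replicate 2, a log2 ratio of -3.78, so it was not detected in both libraries.

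The other p53-linked miRNAs did not move as 1 group. Of 8 tested, 4 were lower in replicate 2 and 0 higher, with a median of -0.11, where 20.8% of all genes tested were lower. Among tested genes with a mean of 100 CPM or more, 63 of 187 were lower. The 4 p53-linked miRNAs that were lower were Mir143, Mir145a, Mir141 (-0.40) and Mir200c (-0.24), which also stand in the smooth muscle and epithelial lists. The miR-34 genes, the best known p53 targets, did not pass. Mir34a had 56.6 and 69.1 CPM and a log2 ratio of 0.25, Mir34c had 59.1 and 66.6 CPM at 0.13, and Mir34b had 3.62 and 5.99 CPM at 0.69. Mir107 had 1687 and 1698 CPM and did not pass, with a log2 ratio of -0.03 on the TMM scale. Mir34a and Mir34c were thus above Mir215 and Mir194-1 in level and below Mir192 and Mir194-2.

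The genes nearest to each member in level were found by distance on log2 CPM over the 2 libraries, which cannot separate a shared pattern from a shared level. Nearest to Mir192 was Mir425, with 3663 and 3137 CPM, then Mir130b and Mir351. Nearest to Mir194-2 was Mir148a of the liver-enriched list, with 1486 and 1354 CPM at a distance of 0.0563, then Mir324 and Mir100. Nearest to Mir215 were Mir877 (43.4 and 30.3 CPM), Mir701 and Mir7j. Nearest to Mir194-1 were the kidney tubule miRNA Mir204, Mir511 and Mir199a-2, the first at a distance of 0.331. No member was among the nearest 3 of another.

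An arm shared with another gene, as in the miR-194 copies, was found in 87 of the 927 genes that stand both in the tables and in the RefSeq miRNA table. Of these 87, 41 were detected, with a median level of 37.4 CPM. Of the 840 genes without such an arm, 279 were detected, with a median of 169 CPM. Mir194-2 lay above both medians and Mir194-1 below both.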

How the data were processed

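The authors deposited raw whole-number read counts per miRNA gene, 1 table per library, without normalization, for both strands, the gene's own strand and the opposite strand. Per the text deposited beside the tables, assembly mm10 and annotation release M4 were used, and RNA of under 30 nucleotides was selected per the labels. Which aligner, counting program and trimming were used is not given in the sources used here. Names and positions came from GENCODE release M21 (1894 of 1973 identifiers matched) and sequences from RefSeq miRNA entries, both on GRCm38. CPM, ranks and shares used own-strand counts, and intervals are exact Clopper-Pearson intervals at 95%.

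The labels give 1 group, so no quasi-likelihood test between conditions could be made. Each gene's counts in the libraries were compared by an exact conditional binomial test, two-sided (scipy 1.17.1), across all genes with at least 10 counts summed, adjusted by Benjamini-Hochberg. TMM factors came from edgeR 4.0.16 in R 4.3.3, taken from genes with at least 10 counts in both libraries, and DESeq2 1.42.0 gave alternative size factors. That gene set for TMM, and TMM over all genes or over genes tested as alternatives, were chosen after the data were seen, to follow an earlier analysis of these tables. The binomial comparison was tested on simulated counts with set fold changes and sampling error only. That simulation held no further variation between libraries and no PCR copies. The other steps were not tested in this way. A count of 0 allows up to 3 counts, which is 0.543 CPM for the deeper library, replicate 1, and 0.946 CPM for the other.

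Named genes are the members, the 3 nearest in level to each, genes sharing a seed, and listed liver-enriched, p53-linked and cell type miRNAs. Members and lists were chosen with earlier results of these data known. Mir378 and Mir142, also listed, were not analysed here.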

Additional observations from a re-analysis of the deposited data

How the results depend on the processing

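Over 51 alternatives other than leaving out a library, 43 kept their direction and side of the threshold or moved by less than the SD of the libraries. With both strands together in gene and total, Mir192 came to 3003 CPM and Mir194-2 to 1264 CPM. With Mir122 left out of the total, Mir192 came to 4002, Mir194-2 to 1684 and Mir215 to 40.6 CPM. Mir215 did not pass as lower in replicate 2 with total counts (log2 ratio -0.41), with TMM factors from genes tested (-0.42) or with no minimum above 1 count (-0.45), where the adjusted p of the exact binomial test was 0.0574, 0.0508 and 0.0566. Mir215 did pass with DESeq2 size factors, TMM over all genes, both strands together and a minimum of 50 counts. Over the other alternatives, the minimum of 50 counts left out, the adjusted p of the exact binomial test ranged from 0.0168 to 0.0246 for Mir194-1, from 3.55e-05 to 0.00437 for Mir194-2 and from 2.66e-21 to 1.07e-13 for Mir192. The number of genes that differed between the libraries lay between 160 and 186. Without replicate 1 or 2, levels equal those of the other library, 3141 to 3455 CPM for Mir192 and 12.3 to 20.1 CPM for Mir194-1. No paired analysis was possible because the labels give 1 group. Depth limits the chromosome 1 genes, which rest on 39 to 211 counts per library.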

Other observations

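The miR-194 copies were set beside other pairs of genes that share an identical mature arm, a comparison chosen after the values were seen. In 16 pairs both genes were detected, and the count of the higher gene was between 1.02 and 90.3 times that of the lower, as a mean of the libraries, with a median of 6.87. Mir194-2 over Mir194-1 was the highest of these 16 ratios. Next were Mir181b-2 over Mir181b-1 at 34.7, Mir181a-1 over Mir181a-2 at 30.3 and Mir92-1 over Mir92-2 at 23.3. Mir30c-2 and Mir30c-1 were the closest pair, at 1.02. Mirlet7c-2 stands in 2 of the pairs. Mirlet7a-1 with Mirlet7a-2, both detected, is not among the pairs, so the set and its median may be incomplete. Each ratio is of the counts placed at either gene and leaves out reads that fit both.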
